A study of Homo sapiens with 6 samples.

Results

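The genes described here are the replication-dependent histone genes of the nascent transcription table from T47D cells, chosen by gene name (the H1-, H2AC, H2BC, H3C and H4C series and H4-16) with at least 10 counts in at least 1 library. The rule found 65 of the 20333 gene intervals in the table; a further interval, H3C8, matched by name and fell under the minimum. Transcription was measured by PRO-seq, in which engaged RNA polymerases in permeabilised cells are run on and the nascent RNA is sequenced, so the values report polymerases on the gene rather than stored mRNA. T47D is an established luminal breast cancer line, labelled estrogen receptor positive and HER2 negative, and all cells were grown in medium with serum. The arms were DMSO (the vehicle control), 500 nM GDC0068, a catalytic inhibitor of the AKT kinases, and 100 nM of the AKT degrader INY-05-040, called Degrader here, each for 5 h. Each arm had 2 libraries from 2 independent experiments, and the submitters chose the unequal doses for a like suppression of signalling downstream of AKT, so a difference between the drugs is a difference at those doses. Libraries of the same replicate number were taken here as 1 experiment, which the labels do not state outright. A single cell line and time limit what the arms can stand for.

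Replication-dependent histone genes encode the bulk of the histones that package newly made DNA. They are transcribed mainly in S phase, lie in clusters, mostly lack introns, and give mRNAs that end in a stem-loop instead of a poly(A) tail. H2A, H2B, H3 and H4 form the nucleosome core, and H1 is the linker histone that binds where DNA enters and leaves it. NPAT activates these genes in the histone locus body, HINFP acts at H4 promoters, POU2F1 (Oct-1) acts at the octamer of H2B promoters, and NF-Y binds CCAAT boxes. AKT acts below PI3K in growth factor signalling, and among its known outputs is entry into the cell cycle.

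The 65 genes comprised 5 H1, 17 H2A, 18 H2B, 13 H3 and 12 H4 genes, of which 6 carry pseudogene names ending in P. The submitters' processing notes list the build hg38 (GRCh38). In the coordinates of the table, 32 lie in a stretch of chromosome 6 from 26020453 to 26285534, 19 in a second stretch of chromosome 6 from 27133145 to 27893843, 13 on chromosome 1 from 149810406 to 149888446, and H4-16 alone on chromosome 12. An interval of at most 1000 bp, close to the size of the coding gene, was given for 45 of them. The other 20 intervals were longer, up to 27230 bp for H2BC15, and can hold transcription outside the short histone gene as well, downstream or upstream of it. The interval of H2BC6 begins far upstream of its RefSeq start. No other interval overlapped 58 of the 65. Library totals ran from 25371819 to 32192576 counts, and all 65 genes passed the filter on low counts, with 12 counts for H2AC9P in 1 DMSO library as the lowest value. All 10 luminal markers listed (ESR1, GATA3, KRT8 and others) had an interval and passed the filter. Of these, edgeR called PGR, which encodes the progesterone receptor, under Degrader: it had 791 and 821 CPM (counts scaled to a common library size) in DMSO, 882 and 989 under GDC0068 and 984 and 1050 under Degrader (log2 fold change 0.34, adjusted p = 0.00801). It was not called without DMSO replicate 1 or Degrader replicate 2, limma voom called 3 of the 10 higher under Degrader, and with the experiment as a block edgeR called 3 higher and 2 lower. For comparison, edgeR called 7.39% of all genes higher under Degrader, and with the block 15.1% higher and 15.7% lower. Of 12 markers of other cell types, only CD68 was among the intervals analysed here, at 83.6 and 77.2 CPM in DMSO, 62.6 and 67.6 under GDC0068 and 64.4 and 55.1 under Degrader. CD68 was lower under GDC0068 (log2 fold change -0.30, adjusted p = 0.0487) and under Degrader (-0.43, adjusted p = 0.0036) by edgeR. It was not called under GDC0068 when any library of that contrast was left out, and the part of either gene in the values below was not tested.

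The promoters shown here introduce the families whose values follow: H4C4, H3C2 and H1-3 were lower under GDC0068, and H2AC6 and H2BC17 were higher under Degrader. RefSeq promoters of the build GRCh38.p14, from 250 bases before to 50 bases after the start, matched 53 of the 65 genes by symbol, and in 43 of these the RefSeq start lay within 50 bp of the start in the table. The 5 below have the same start in both. Capitals mark every match, on either strand, to the letters TATAAA, to CCAAT or to ATTTGCAT (the octamer bound by Oct-1), and no match overlaps another in them.
H4C4, chr6:26189063-26189362, minus strand: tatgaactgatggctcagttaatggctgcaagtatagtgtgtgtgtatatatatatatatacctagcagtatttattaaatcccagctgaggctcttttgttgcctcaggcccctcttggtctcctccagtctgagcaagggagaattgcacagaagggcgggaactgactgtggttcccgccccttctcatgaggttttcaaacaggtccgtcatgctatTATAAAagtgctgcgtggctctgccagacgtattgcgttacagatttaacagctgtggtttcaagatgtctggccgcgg
H3C2, chr6:26032050-26032349, minus strand: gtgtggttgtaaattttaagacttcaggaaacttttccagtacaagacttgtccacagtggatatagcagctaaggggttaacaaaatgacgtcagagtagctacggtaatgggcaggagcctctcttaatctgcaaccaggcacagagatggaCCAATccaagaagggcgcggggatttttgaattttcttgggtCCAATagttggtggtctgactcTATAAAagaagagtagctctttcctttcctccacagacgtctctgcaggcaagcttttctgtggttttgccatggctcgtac
H1-3, chr6:26234938-26235237, minus strand: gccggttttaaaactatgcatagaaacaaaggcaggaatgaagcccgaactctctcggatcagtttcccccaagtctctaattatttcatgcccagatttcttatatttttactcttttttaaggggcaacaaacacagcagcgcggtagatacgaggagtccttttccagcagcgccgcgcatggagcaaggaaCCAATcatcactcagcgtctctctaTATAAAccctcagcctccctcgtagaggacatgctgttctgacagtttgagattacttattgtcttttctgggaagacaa
H2AC6, chr6:26123922-26124221, plus strand: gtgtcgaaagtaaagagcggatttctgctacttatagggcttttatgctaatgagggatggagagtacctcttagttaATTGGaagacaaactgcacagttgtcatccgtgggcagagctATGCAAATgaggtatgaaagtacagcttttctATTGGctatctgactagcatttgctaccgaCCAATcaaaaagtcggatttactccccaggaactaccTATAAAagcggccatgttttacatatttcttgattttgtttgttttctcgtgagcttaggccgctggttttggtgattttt
H2BC17, chr6:27893175-27893474, plus strand: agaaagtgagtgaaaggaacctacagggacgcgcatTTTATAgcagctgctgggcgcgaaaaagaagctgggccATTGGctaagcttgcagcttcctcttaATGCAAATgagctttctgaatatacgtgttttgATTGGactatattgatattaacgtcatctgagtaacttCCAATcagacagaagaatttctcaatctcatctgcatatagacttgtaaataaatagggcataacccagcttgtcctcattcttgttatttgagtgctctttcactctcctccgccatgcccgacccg
The H4C4 window holds a TATA box at position -29 and neither of the other motifs. H3C2 and H1-3 have TATA boxes at -32 and -30 with CCAAT matches upstream. H2AC6 and H2BC17 each lie head to head with a histone gene on the other strand (H2BC4 and H2AC17), with 246 and 240 bp between the starts, so most of each window is shared with that partner. Both windows hold an octamer and 3 CCAAT matches.

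The families differed in these letters. Among the 43 promoters with starts within 50 bp, CCAAT was present in 3 of 3 H1, 12 of 12 H2A, 13 of 13 H2B and 8 of 8 H3 promoters and in 0 of 7 H4 promoters, beside 35.7% of all 27305 RefSeq promoters. Without that limit on the start, 2 of 9 H4 promoters held CCAAT (H4C6 and H4C9). The octamer was present in 8 of 12 H2A and 10 of 13 H2B promoters and in none of the H1, H3 and H4 promoters of this group, beside 1.80% of all promoters. TATAAA was present in 30 of the 43 (69.8%), beside 12% of all promoters. These are matches of letters and not measured binding, and H2A and H2B partners contribute largely the same bases.

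In DMSO, the 65 genes took 0.469% and 0.440% of all counts in the 2 libraries. Levels between genes are compared here as CPM per kb of interval, which places the genes with long intervals low. The highest by this measure over all 6 libraries were H2AC18 (358 CPM per kb) and H2AC20 (247) among H2A genes, H1-2 (253) and H1-4 (204) among linker histones, H4C2 (228) and H4C15 (194) among H4 genes, H3C14 (192) and H3C2 (141) among H3 genes, and H2BC12 (113) and H2BC17 (94.2) among H2B genes. The promoters of H2AC18 and H2AC19 agreed in 299 of 299 bases when shifted by 1 base, those of H3C14 and H3C15 in 296 of 296 when shifted by 4, and those of H4C14 and H4C15 in 300 of 300. Reads of such near-identical copies can be split between them by the authors' counting, so the levels of these 6 genes are uncertain. The lowest was H2AC9P, a pseudogene name with a 50 bp interval, at 0.373 to 1.11 CPM.

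Under GDC0068, 16 histone genes fell, 7 of them H4 and 4 of them H3 genes, and none was called higher. The histone share of the library was 0.386% and 0.405% under GDC0068, below both DMSO libraries. By edgeR, 16 of the 65 genes differed from DMSO at an adjusted p under 0.05, and all 16 were lower, where 1.88% of the 19902 genes tested were called lower and 1.70% higher. The median log2 fold change was -0.21 over the 65 genes and 0.01 over all genes, and 57 of the 65 lay below 0. Both GDC0068 libraries were below both DMSO libraries in 43 genes, where this held for 24.0% of all genes. With the experiment as a block, edgeR called 36 lower and 1 higher (H2AC6), where 8.91% of all genes were called lower and 8.87% higher. A lower share of cells in S phase and less transcription per cell cannot be told apart in such bulk libraries. Without DMSO replicate 1, 1 call was left (H1-5), and there were 10 without DMSO replicate 2, 8 without GDC0068 replicate 1 and 5 without GDC0068 replicate 2.

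Under Degrader, 7 histone genes fell and 3 rose. Their share of the library was 0.425% and 0.458%, which overlaps DMSO. edgeR called 7 genes lower and 3 higher, where 7.88% of all genes were called lower and 7.39% higher, so 10.8% of the histone genes were lower and 4.62% higher. The median log2 fold change was -0.04, against -0.00 over all genes, and 36 of the 65 lay below 0. Libraries did not overlap in 22 genes that were lower (33.8%) and 11 that were higher (16.9%), where all genes gave 29.2% lower and 29.3% higher. With the experiment as a block, 17 were called lower and 7 higher, where all genes gave 15.7% and 15.1%. Without DMSO replicate 1, the calls were 2, both higher (H2AC6 and H2BC17), they were 9 without DMSO replicate 2 (8 lower and 1 higher), 6 without Degrader replicate 1 (3 lower and 3 higher), and without Degrader replicate 2 they were 3 (H2AC6 higher, H3C13 and H4C15 lower). The median was -0.14 in experiment 1 and 0.05 in experiment 2. Under GDC0068 it was -0.32 and -0.13.

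**Figure D1:**
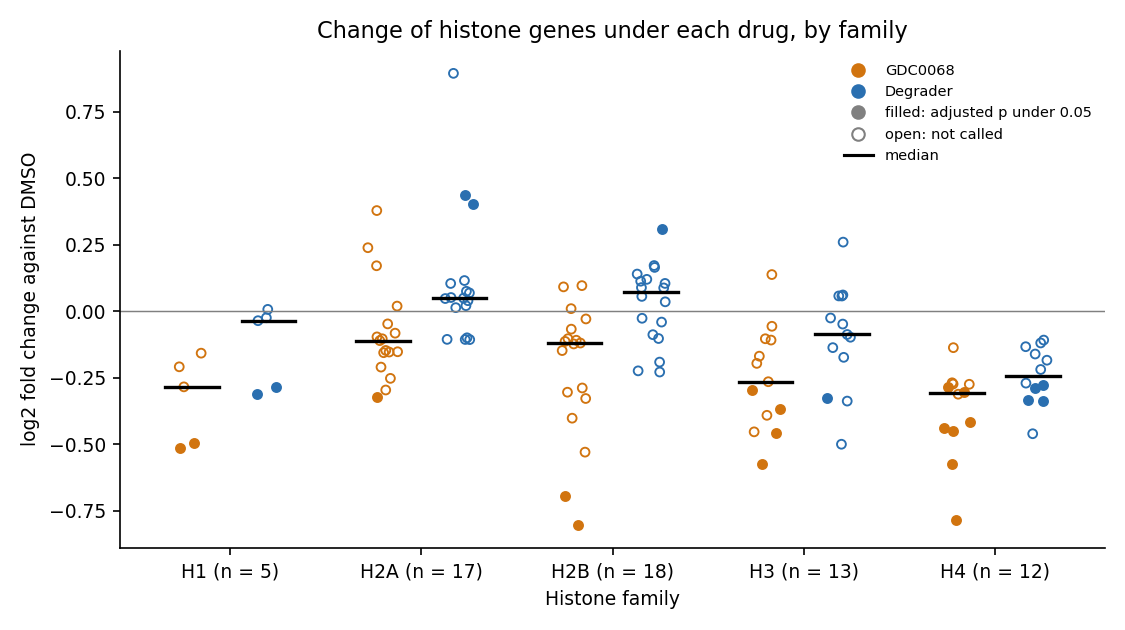
Log2 fold change against DMSO (vertical axis) of each of the 65 histone genes, by family, for GDC0068 (orange) and Degrader (blue); filled points passed an adjusted p of 0.05 in edgeR and bars are family medians. All 12 H4 genes lie below 0 under both drugs, while the Degrader medians of H2A and H2B lie just above 0.

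H4 genes, which encode the most uniform of the core histones, were lower under both drugs. All 12 had log2 fold changes below 0 under each drug, with medians of -0.31 for GDC0068 and -0.25 for Degrader; both contrasts use the same DMSO libraries. edgeR called 7 of 12 lower under GDC0068 and 4 of 12 lower under Degrader. Of all genes, 1.88% and 7.88% were called lower (8.91% and 15.7% with the experiment as a block). H4C3 stood at 85.3 and 72.7 CPM in DMSO, 58.3 and 57.2 under GDC0068 and 62.8 and 62.1 under Degrader. Every drug library lay below every DMSO library (log2 fold change -0.45 ± 0.07 (SE), adjusted p = 0.00925 for GDC0068; -0.34 ± 0.07, adjusted p = 0.00813 for Degrader; edgeR). H4C4, whose promoter is shown above, had 62.1 and 59.8 CPM in DMSO, 36.3 and 45.2 under GDC0068 and 49.0 and 51.7 under Degrader. It was called lower in both contrasts (-0.58 ± 0.09 for GDC0068, adjusted p = 0.00847; -0.28 ± 0.08 for Degrader, adjusted p = 0.0471). DESeq2 did not call H4C4 under Degrader. H4C11 had 62.1 and 50.6 CPM in DMSO, 42.1 and 42.4 under GDC0068 and 45.4 and 47.0 under Degrader. H4C8, with an interval of 4480 bp, had 64.4 and 61.8, then 40.8 and 52.1, then 49.6 and 50.4 CPM in the same order. Both were called lower in both contrasts, with log2 fold changes of -0.42 and -0.44 for GDC0068 and -0.29 and -0.34 for Degrader.

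The remaining H4 genes lay lower in smaller steps or with more spread. H4C6 had 13.9 and 9.37 CPM in DMSO, 6.61 and 6.97 under GDC0068 and 8.77 and 8.23 under Degrader. It had the lowest H4 value under GDC0068 (-0.78 ± 0.17, adjusted p = 0.031), and its 2 DMSO libraries stood further apart, relative to its level, than those of the other H4 genes named. DESeq2 did not call H4C6 under GDC0068. H4C15 was at 241 and 231 CPM in DMSO, 182 and 200 under GDC0068 and 187 and 218 under Degrader, and H4C14, its near-identical copy, was at 73.4 and 70.0, 57.9 and 59.8, and 59.8 and 68.3. Both were called lower under GDC0068 (adjusted p = 0.0453 and 0.0412 by edgeR) and not under Degrader (0.0643 and 0.125), where the block gave 0.000275 and 0.014. H4C2 had 120 and 114 CPM in DMSO, 88.8 and 104 under GDC0068 and 101 and 114 under Degrader, with no call in either contrast (adjusted p = 0.000136 and 0.0449 with the block). H4-16 on chromosome 12, outside the clusters, had 62.9 and 60.8, 54.8 and 57.6, and 52.4 and 56.5 CPM, and both of its fold changes (-0.14 for GDC0068 and -0.18 for Degrader) missed the threshold; with the block the Degrader value passed it (adjusted p = 0.00465) and the GDC0068 value did not (0.0503). Per library, H4 genes together took 0.0962% and 0.0898% of DMSO counts, 0.0698% and 0.0781% of GDC0068 counts and 0.0764% and 0.0840% of Degrader counts, so neither drug overlapped DMSO. With the experiment as a block, edgeR called 10 of 12 lower under each drug, and without DMSO replicate 1 it called 0 of 12 under either drug.

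**Figure D2:**
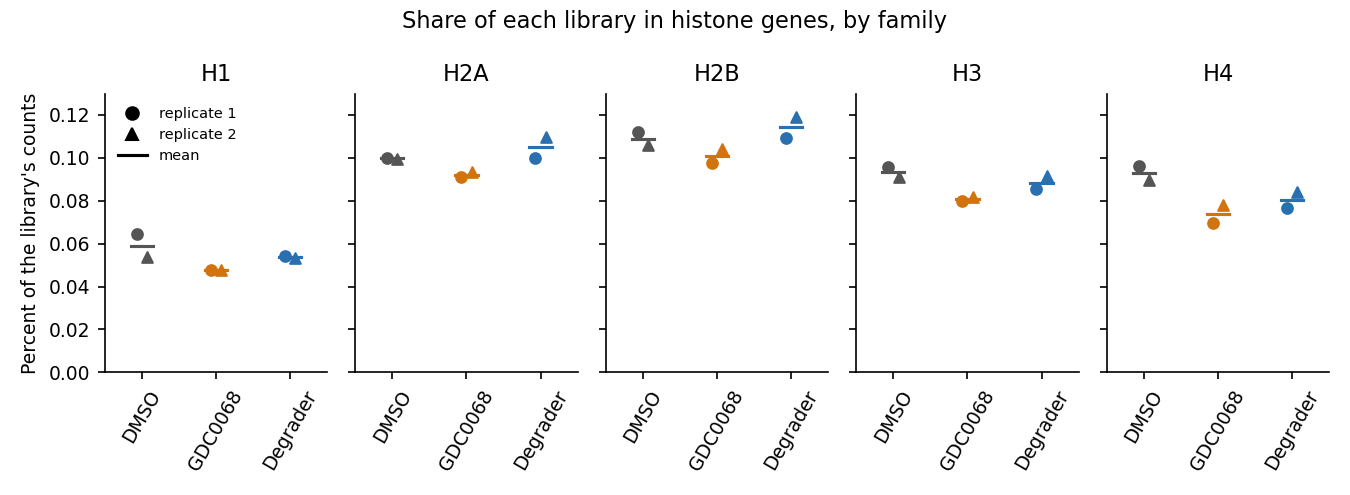
Percent of each library's counts in the genes of each family (vertical axis), for the 3 arms; circles are replicate 1, triangles replicate 2 and bars the mean of the 2. GDC0068 lies below both DMSO libraries in every family, and Degrader lies below both DMSO libraries only in H4.

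H3 genes, whose product carries most of the modified tail residues studied on chromatin, were lower under GDC0068 and mixed under Degrader. edgeR called 4 of 13 lower under GDC0068 (H3C1, H3C2, H3C7 and H3C11) and 1 lower under Degrader (H3C11), with medians of -0.27 and -0.09. Of all genes, 1.88% were called lower under GDC0068 and 7.88% under Degrader. H3C11 had 39.4 and 35.0 CPM in DMSO, 25.7 and 24.4 under GDC0068 and 31.3 and 28.1 under Degrader. None of the 3 arms overlapped another (-0.57 ± 0.09, adjusted p = 0.00849 for GDC0068; -0.33 ± 0.08, adjusted p = 0.0251 for Degrader). H3C2 had 84.0 and 75.3 CPM in DMSO, 63.1 and 60.3 under GDC0068 and 74.8 and 70.2 under Degrader. Its change was called for GDC0068 (-0.37 ± 0.06, adjusted p = 0.0138), while its Degrader value was -0.14 (adjusted p = 0.171; 0.0162 with the block). H3C14, the most abundant H3 gene per kb, had 344 and 334, 298 and 305, and 305 and 333 CPM in DMSO, GDC0068 and Degrader, without a call (adjusted p = 0.00221 for GDC0068 with the block). H3C6, with an interval of 3238 bp, was the only H3 gene with a GDC0068 value above 0 (0.14 ± 0.12, adjusted p = 0.549). The pseudogene H3C5P had 1.48 to 2.43 CPM and no call. Without DMSO replicate 1, no H3 gene was called under either drug, and without GDC0068 replicate 2 none was called under GDC0068. The block gave 8 lower under GDC0068, and 4 lower and 1 higher under Degrader. Of all genes the block called 8.91% lower under GDC0068, and 15.7% lower and 15.1% higher under Degrader.

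The linker histone genes H1-5 and H1-3 were lower under both drugs, and the other 3 H1 genes were not called. Of all genes, 1.88% were called lower under GDC0068 and 7.88% under Degrader (8.91% and 15.7% with the block). H1-5 had 145 and 120 CPM in DMSO, 92.5 and 93.3 under GDC0068 and 106 and 108 under Degrader. Both drugs' libraries lay below both DMSO libraries (-0.51 ± 0.07, adjusted p = 0.00758 for GDC0068; -0.31 ± 0.07, adjusted p = 0.015 for Degrader). H1-3 had 116 and 98.6 CPM in DMSO, 77.0 and 75.5 under GDC0068 and 92.4 and 84.0 under Degrader (-0.49 ± 0.07, adjusted p = 0.00849; -0.28 ± 0.07, adjusted p = 0.0243). In H1-5 and H1-3, as in H1-2 (199 and 165 CPM) and H1-4 (184 and 148 CPM), DMSO replicate 1 stood above DMSO replicate 2. H1-2 had 156 and 159 CPM under GDC0068 and 180 and 178 under Degrader, so that its Degrader libraries lay between the DMSO libraries. H1-4 had 149 and 149 under GDC0068 and 161 and 163 under Degrader. With the block, both were called lower under GDC0068 (adjusted p = 0.00202 for H1-2 and 0.0296 for H1-4), which made 4 of 5 H1 genes there and left 2 of 5 under Degrader. Without DMSO replicate 1, H1-5 alone was called under GDC0068 and no H1 gene under Degrader; without Degrader replicate 2 none was called under Degrader. The GDC0068 median of the 5 H1 genes was -0.59 in experiment 1 and -0.06 in experiment 2.

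H2A and H2B genes, whose products pair as dimers on the outside of the core, had medians nearer 0 under GDC0068. Under Degrader, 2 of 17 H2A genes and 1 of 18 H2B genes were called higher, where 7.39% of all genes were. Their medians were -0.11 and -0.12 for GDC0068 and 0.05 and 0.07 for Degrader. Under GDC0068, 1 of 17 H2A genes (H2AC14) and 2 of 18 H2B genes (H2BC14 and H2BC16P) were called, all lower, and none of the 3 was called without DMSO replicate 1 or without DMSO replicate 2. H2AC14 had 81.5 and 73.7 CPM in DMSO, 65.5 and 58.9 under GDC0068 and 69.6 and 74.5 under Degrader (-0.32 ± 0.07, adjusted p = 0.032 for GDC0068). Its head-to-head partner H2BC14, at a much lower level, had 7.19 and 6.43 CPM, then 3.89 and 3.91, then 5.33 and 6.35. This was the lowest GDC0068 value of all 65 genes (-0.81 ± 0.15, adjusted p = 0.0182). DESeq2 called neither H2BC14 nor H2BC16P under GDC0068. The pseudogene H2BC16P had 5.88 and 5.55 CPM in DMSO, 3.62 and 3.45 under GDC0068 and 5.61 and 5.63 under Degrader (-0.70 ± 0.15, adjusted p = 0.0283 for GDC0068), and its interval is overlapped on the opposite strand by that of H2BC15. H2BC3 had 8.09 and 8.05, 4.72 and 6.38, and 7.24 and 8.44 CPM, and its GDC0068 value of -0.53 missed the threshold (adjusted p = 0.0852; 0.00426 with the block). H2AC20, with 117 and 113 CPM in DMSO, 101 and 98.1 under GDC0068 and 111 and 122 under Degrader, also missed it (-0.21 ± 0.06, adjusted p = 0.063; 0.000701 with the block). For H2A genes the block gave 7 lower and 1 higher under GDC0068 and 2 higher under Degrader. For H2B genes it gave 7 lower under GDC0068, and 4 higher and 1 lower under Degrader. Of all genes the block called 8.91% lower and 8.87% higher under GDC0068, and 15.7% lower and 15.1% higher under Degrader. Without the block, 1.88% of all genes were called lower under GDC0068.

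H2AC6 was the histone gene with the smallest adjusted p under Degrader, and it was higher. It had 112 and 113 CPM in DMSO, 126 and 127 under GDC0068 and 148 and 149 under Degrader. No arm overlapped another, and the libraries of each arm lay close together (0.40 ± 0.05, adjusted p = 0.000397 for Degrader; 0.17 ± 0.05, adjusted p = 0.0652 for GDC0068, which was 0.00114 with the experiment as a block). The interval of H2AC6 spans 14931 bp, so most of the bases counted lie downstream of the short gene. Its partner H2BC4, with an interval of 9054 bp, had 144 and 144 CPM in DMSO, 143 and 147 under GDC0068 and 148 and 164 under Degrader and was not called (adjusted p = 0.0237 for Degrader with the block). H2BC17, with an interval of 419 bp, had 36.8 and 34.8 CPM in DMSO, 38.2 and 38.3 under GDC0068 and 42.5 and 46.2 under Degrader (0.31 ± 0.07, adjusted p = 0.0101 for Degrader). The pseudogene H2AC5P had 9.09 and 9.48, 9.75 and 9.07, and 11.3 and 13.9 CPM (0.44 ± 0.12, adjusted p = 0.0328 for Degrader). H2AC6 stayed called under Degrader when any single library was left out, H2BC17 was not called without DMSO replicate 2 or Degrader replicate 2, and H2AC5P was not called without either DMSO library or Degrader replicate 2.

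**Figure D3:**
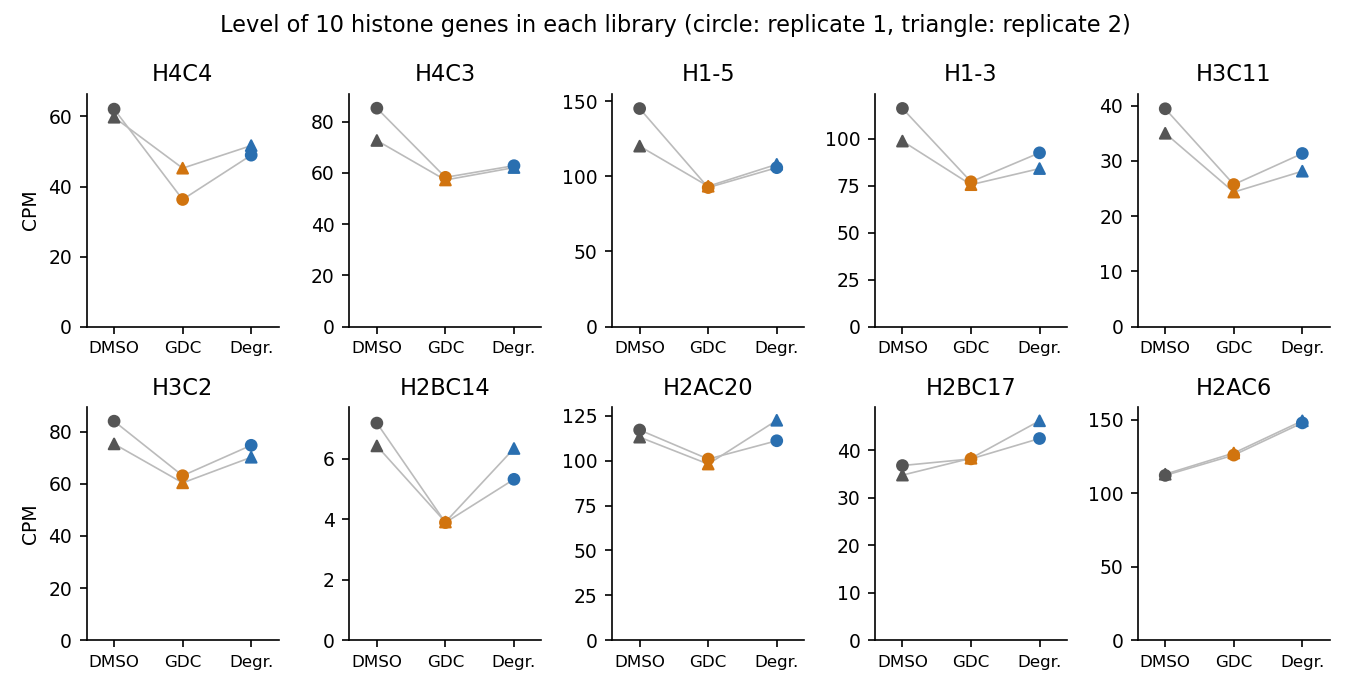
Level in CPM (vertical axis, from 0) of 10 histone genes in each library of DMSO, GDC0068 (GDC) and Degrader (Degr.); circles and triangles are replicates 1 and 2, and grey lines join libraries with the same replicate number. H4C3, H1-5 and H3C11 lie lower under both drugs, H2BC14 lies lowest under GDC0068, and H2AC6 rises from 112 and 113 CPM in DMSO to 148 and 149 under Degrader.

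Head-to-head partners could be compared within 12 H2A/H2B pairs, whose starts lie 194 to 334 bp apart. In 9 pairs, of which 1 includes a pseudogene name, the partners' log2 fold changes differed by at most 0.20 for GDC0068. The other 3 were H2AC5P with H2BC3 (0.02 and -0.53), H2AC14 with H2BC14 (-0.32 and -0.81) and H2AC16 with H2BC16P (-0.30 and -0.70), in each of which the H2B gene was lower and had a level under 10 CPM. For Degrader the largest gaps were in H2AC5P with H2BC3 (0.44 and -0.04), H2AC6 with H2BC4 (0.40 and 0.11) and H2AC17 with H2BC17 (0.07 and 0.31). These gaps were not tested.

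**Figure D4:**
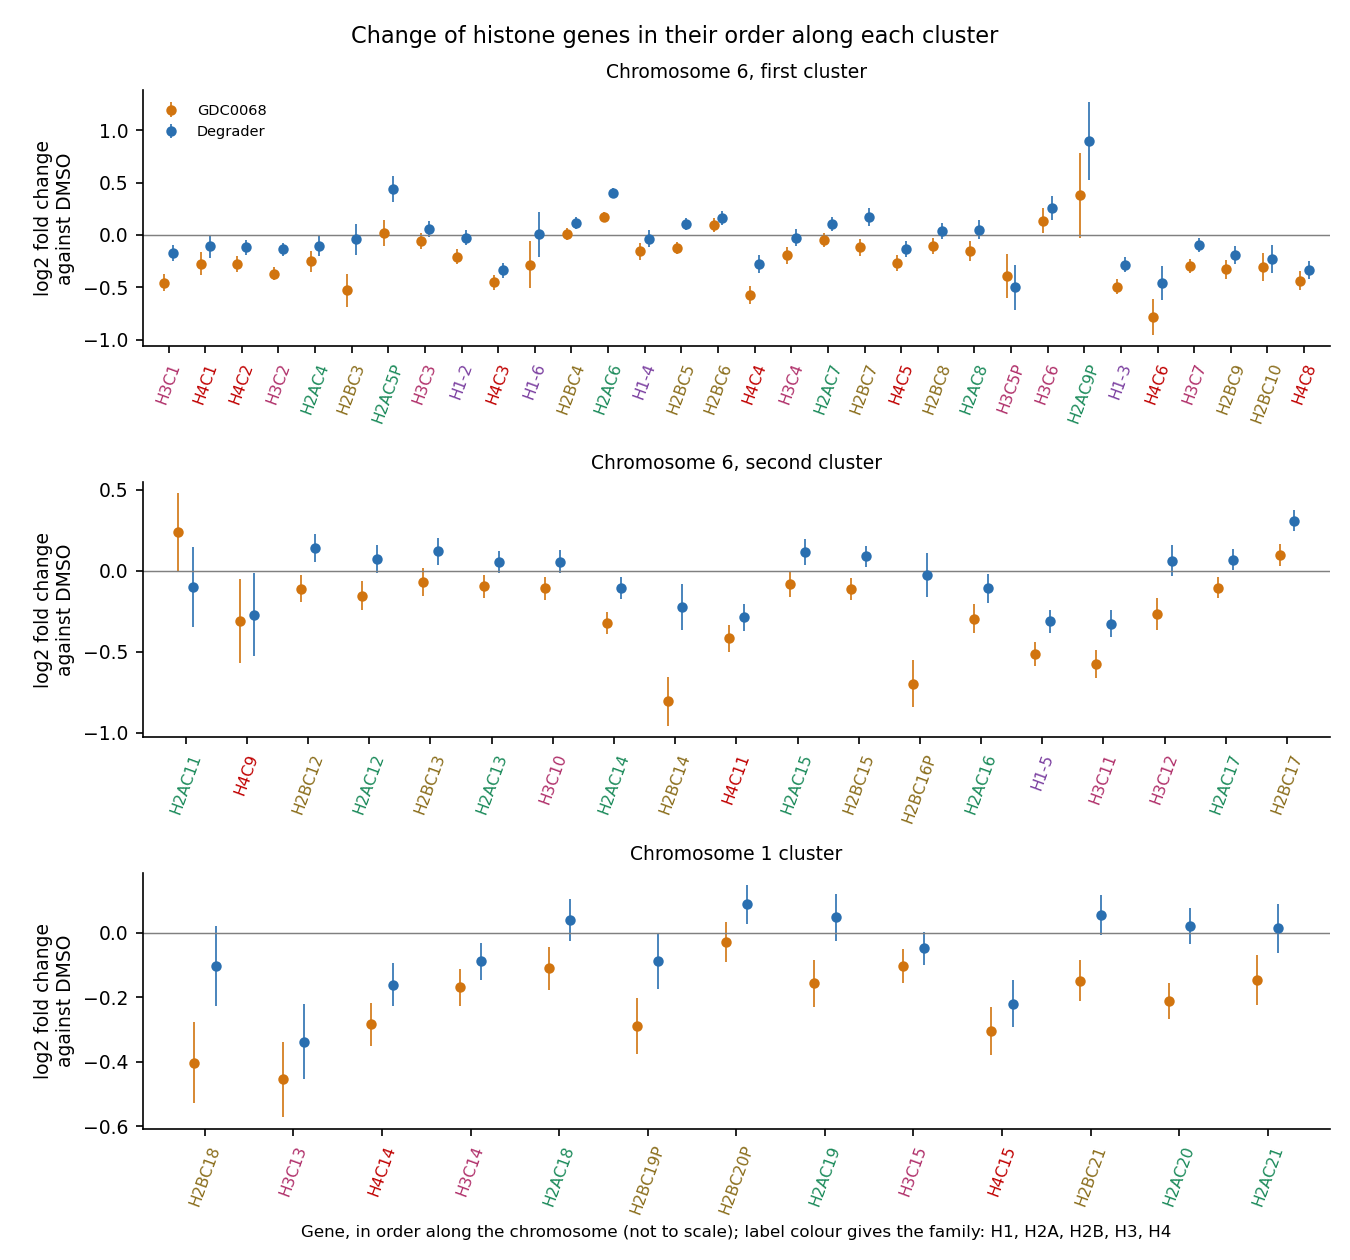
Log2 fold change against DMSO with its SE (vertical axis) for GDC0068 (orange) and Degrader (blue), for the 64 histone genes of the 3 clusters in their order along each chromosome (not to scale; H4-16 is not shown); label colour gives the family. Lower genes such as H4C4, H1-3 and H3C11 stand among genes near 0, and in nearly every gene the Degrader value lies above the GDC0068 value.

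Called genes were found in each cluster under GDC0068. There the medians were -0.26 in the first stretch of chromosome 6 (8 of 32 called), -0.15 in the second (6 of 19) and -0.17 on chromosome 1 (2 of 13), all calls lower. Under Degrader they were -0.04, 0.05 and -0.05. There 4 genes were called lower and 2 higher in the first stretch, and 3 lower and 1 higher in the second. None was called on chromosome 1, where the smallest adjusted p by edgeR was 0.0643 (H4C15). Of all genes, 1.88% were called lower under GDC0068, and 7.88% lower and 7.39% higher under Degrader. With the block, in the same order, GDC0068 had 17, 8 and 11 genes called lower and 1, 0 and 0 higher. Degrader had 10, 3 and 3 called lower and 6, 1 and 0 higher. Of all genes the block called 8.91% lower and 8.87% higher under GDC0068, and 15.7% lower and 15.1% higher under Degrader. The intervals of 8 other genes lie within the clusters, among them HFE, ZNF184 and ZNF391. edgeR called 0 of 8 in any contrast, with 1 at an unadjusted p under 0.05 in Degrader against DMSO. With the block it called 1 of 8, higher under Degrader. At the shares of all genes called, 8 intervals are too few to set against the histone genes. The medians of the 8 were -0.03 for GDC0068 and 0.11 for Degrader. The values also differed with interval length. The 45 genes of at most 1000 bp had a GDC0068 median of -0.27 with 14 calls, and the 20 longer ones -0.12 with 2 calls (H4C8 and H4C15), and the block gave 28 and 9 calls. This split was chosen after the values were seen, and the cause of the difference was not tested.

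Among the 43 genes with a RefSeq start within 50 bp, the 7 without a CCAAT match are all H4 genes, with medians of -0.30 for GDC0068 and -0.22 for Degrader. H4C6 and H4C9 have a CCAAT match but lie outside this limit. Both, like all 12 H4 genes, lay below 0 under each drug, and H4C6 had the lowest GDC0068 value of the family. The 36 of the 43 with a match had medians of -0.15 and 0.04. The 18 with an octamer had -0.15 and 0.04, and the 25 without had -0.21 and -0.09. For CCAAT, motif and family cannot be told apart here, since only H4 promoters lack it. The octamer occurs only in part of the H2A and H2B promoters, and TATAAA in part of each family. The 30 with TATAAA had medians of -0.16 for GDC0068 and -0.01 for Degrader, and the 13 without had -0.27 and -0.11. Matches on either strand count, so the 30 include H2BC4, H2AC8, H2BC14 and H2BC17. Their only match lies on the other strand, at -220, -206, -219 and -214, and not near their own start. None of these differences was tested.

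Most histone genes stood at a higher level under Degrader than under GDC0068; edgeR called none of them without the experiment as a block and 30 with it. The log2 fold change of Degrader over GDC0068 lay above 0 in 62 of 65 genes, with a median of 0.18 against -0.00 over all genes, and 59 genes were above 0 in both experiments. Both Degrader libraries exceeded both GDC0068 libraries in 45 genes, where this held for 22.1% of all genes. edgeR called 0 of 65 (31 at an unadjusted p under 0.05), where 0.266% of all genes were called, and DESeq2 and limma voom also called 0. Robust estimation called 1 (H2AC6), as did the fit without GDC0068 replicate 2 (H4C4). With the experiment as a block, edgeR called 30 of 65, all higher under Degrader, where 5.03% of all genes were called higher and 5.35% lower. By family, these were 3 of 5 H1, 9 of 17 H2A, 10 of 18 H2B, 6 of 13 H3 and 2 of 12 H4 genes. The smallest adjusted p without the block was that of H2AC6 (0.23, 95% interval 0.13 to 0.33, adjusted p = 0.067), followed by H2BC16P (0.67, 0.35 to 0.99, adjusted p = 0.0857) and H2AC20 (0.23, 0.11 to 0.35, adjusted p = 0.111). H4C4 had 0.30 (0.11 to 0.49) and H4C3 0.11 (-0.04 to 0.27). The 3 genes below 0 were H2AC11, H3C5P and H4-16, with intervals that include 0. The histone share rose from GDC0068 to Degrader by factors of 1.10 and 1.13 in the 2 experiments.

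**Figure D5:**
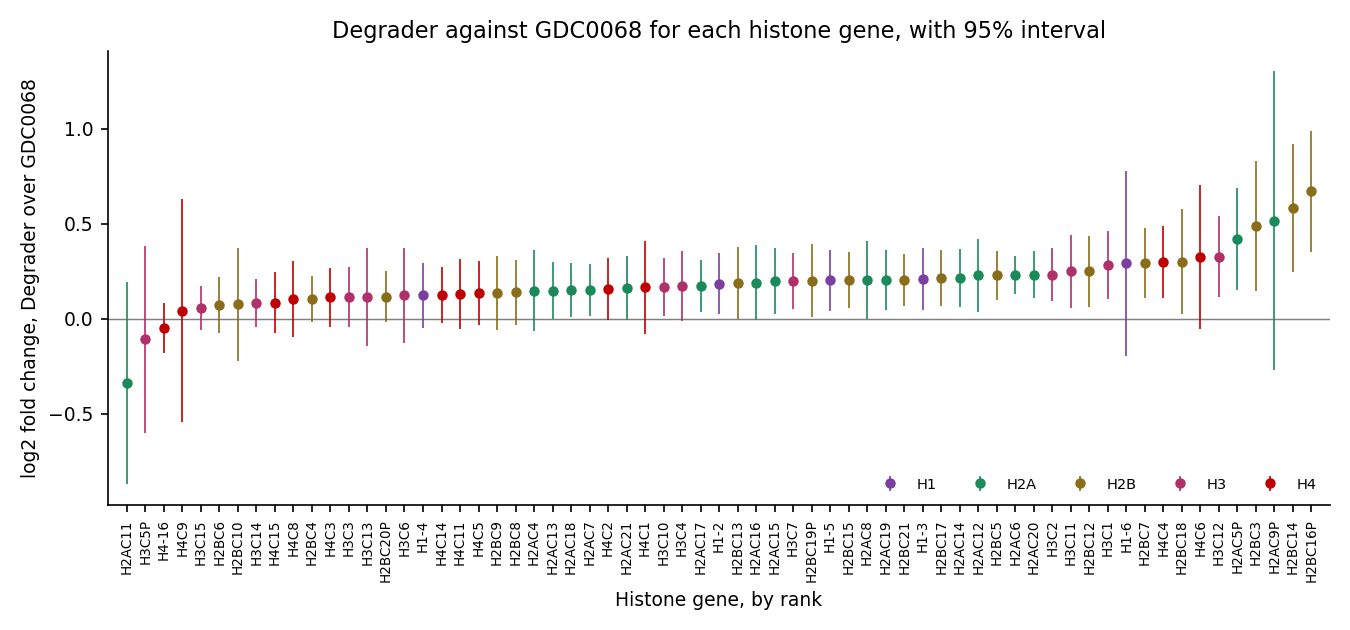
Log2 fold change of Degrader over GDC0068 (vertical axis) with its 95% interval for each of the 65 histone genes, ranked along the horizontal axis and coloured by family. Values lie above 0 in 62 of 65 genes, and the 3 below 0 (H2AC11, H3C5P and H4-16) have intervals that include 0.

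Of 14 regulators of histone transcription, edgeR called 0 under GDC0068 (3 at an unadjusted p under 0.05; 0 by DESeq2 and by limma voom) and 3 under Degrader, 2 higher and 1 lower, where 7.39% of all genes were called higher and 7.88% lower. NPAT, the activator of the histone locus body, had 84.7 and 85.2 CPM in DMSO, 83.7 and 89.6 under GDC0068 and 88.6 and 100 under Degrader, and CASP8AP2, which resides in that body, had 55.2 and 58.1, 49.1 and 52.7, and 57.0 and 55.8. Neither was called, but the block gave adjusted p = 0.0082 for NPAT under Degrader and 0.0348 for CASP8AP2 under GDC0068. HINFP, the factor of H4 promoters, rose from 61.2 and 62.6 CPM in DMSO to 74.1 and 73.2 under Degrader (0.25, adjusted p = 0.0084), the NF-Y subunit gene NFYC rose (0.18, adjusted p = 0.0446), and the cyclin gene CCNE1 fell from 14.5 and 14.3 to 9.61 and 10.9 CPM (-0.49, adjusted p = 0.0114). None of the 3 was called without DMSO replicate 1, and 1 or 2 of the list without any other library of that contrast. SLBP, which binds the stem-loop of histone mRNAs, was the only called gene of 20 in histone mRNA processing and decay. It was lower under Degrader, where 7.88% of all genes were called lower, and 0 of the 20 were called under GDC0068, where 1.88% were. SLBP had 58.9 and 61.4 CPM in DMSO, 54.4 and 49.7 under GDC0068 and 45.4 and 48.1 under Degrader (-0.36, adjusted p = 0.0034 for Degrader). Its GDC0068 value was -0.21 (adjusted p = 0.0923, and 0.00635 with the block).

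Of 39 genes of DNA replication and its control, 13 were lower under GDC0068 and 14 under Degrader, with medians of -0.19 and -0.18, where 1.88% and 7.88% of all genes were called lower, and none was called higher. The helicase subunit gene MCM5 had 42.8 and 39.5 CPM in DMSO, 29.6 and 27.6 under GDC0068 and 30.8 and 30.8 under Degrader (-0.53, adjusted p = 0.0063; -0.42, adjusted p = 0.0032). The licensing factor gene CDT1 (-0.38 and -0.42), MCM3 (-0.40 and -0.33) and the transcription factor gene E2F1 (-0.36 and -0.43) were also called lower under both drugs. Without DMSO replicate 1, 0 of the 39 were called under GDC0068 and 4 under Degrader, and without any other library 6 to 7 and 6 to 9. The median of Degrader over GDC0068 was 0.07 in this list, beside 0.18 in the histone genes. Of 18 histone chaperone genes, which include MCM2 from the same list, 4 were lower under each drug, among them TONSL (-0.34 for GDC0068 and -0.42 for Degrader), HIRA under Degrader (-0.24) and NAP1L1 under GDC0068 (-0.24), beside the same 1.88% and 7.88% of all genes. Under GDC0068, 0 of the 18 were called without DMSO replicate 1 or GDC0068 replicate 2, 1 without DMSO replicate 2 and 2 without GDC0068 replicate 1. Under Degrader, 1 was called without DMSO replicate 1 and 2 without Degrader replicate 2. Of 11 genes listed as replication-independent histone variants, MACROH2A1 (-0.20, adjusted p = 0.0221) and MACROH2A2 (-0.27, adjusted p = 0.0148) were lower under Degrader, where 7.88% of all genes were. None of the 11 was called under GDC0068, where their median was 0.06. Without either DMSO library or Degrader replicate 2, 0 of the 11 were called under Degrader, and 1 was called without Degrader replicate 1. With the experiment as a block, the calls under GDC0068 and Degrader were 3 and 7 of the 14 regulators, 3 and 6 of the 20 processing genes, 26 and 21 of the 39 replication genes, 7 and 9 of the 18 chaperones and 3 and 5 of the 11 variants. Under that block 8.91% of all genes were called lower and 8.87% higher for GDC0068, and 15.7% lower and 15.1% higher for Degrader. The adjusted p-values here are those of edgeR over all genes.

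Library by library, the median of the 65 genes' log2 CPM, each taken against the gene's mean, was 0.13 and 0.06 in DMSO, -0.17 and -0.07 under GDC0068 and 0.01 and 0.10 under Degrader. DMSO replicate 1 was thus the highest library and GDC0068 replicate 1 the lowest. In all, edgeR called 7 genes under both drugs (H4C3, H4C4, H4C8, H4C11, H3C11, H1-3 and H1-5) and 19 under at least 1 of them, and the contrasts share the DMSO libraries. Among the 7, H4C4 was not called under Degrader by DESeq2. Shares of all genes called were 1.88% lower and 1.70% higher under GDC0068, and 7.88% lower and 7.39% higher under Degrader. The share of all genes called under both drugs was not counted, so the overlap has no background here. No permutation test over 2 against 2 libraries can reach 0.05, so the calls rest on the spread that the fit shares across genes.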

How the data were processed

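PRO-seq was performed on T47D cells with 2 libraries per arm. The authors deposited unnormalised counts for each gene's interval, all libraries in the same table; the submitters' processing notes name cutadapt 1.14, Bowtie 1.2.2, SAMtools 1.3.1, HISAT2 2.2.1 and limma, and the builds hg38 (GRCh38) and dm3, with no role. How reads were counted, the use of strand and any spike-in scaling are not given in the sources used here, so overlapping and antisense transcription can enter a count, and changes are relative to the bulk of genes.

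All 6 libraries entered 1 quasi-likelihood fit in edgeR 4.0.16 (R 4.3.3), after filterByExpr (19902 genes; minimum count 10, minimum total 15) and TMM factors of 0.9966 to 1.003, with Benjamini-Hochberg adjustment over all genes; a gene is called at an adjusted p under 0.05. CPM use these factors, and the common biological variation was 5.51%. Adjusted p-values in the text are edgeR's. The fit was tested on simulated counts. DESeq2 1.42.0, limma 3.58.1 and the other settings of the closing section were alternatives; tables and plots used Python 3.11.15, pandas 2.3.3 and matplotlib 3.10.9.

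Replicate numbers were taken as pairing the libraries, since the series describes 2 independent experiments and same-numbered libraries deviated together (correlations 0.238, 0.279 and 0.254 over genes); p-values without the block measure the spread between libraries.

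Genes were named by this rule: per contrast, up to 6 called in each direction by smallest adjusted p and the 3 highest and 3 lowest fold changes at a mean of at least 1 CPM, the 2 members of highest CPM per kb in each family, the lowest member, and, of the other lists, NPAT, CASP8AP2, SLBP and up to 3 called genes per contrast. H2AC14, H2BC4, H3C1, H3C7, H3C13, H4C14 and some list genes were added after their values were seen. The members and lists were chosen with earlier results of these data known.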

Additional observations from a re-analysis of the deposited data

How the results depend on the processing

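The medians of the 65 histone genes moved by less than the spread between libraries under every alternative run, but the Degrader median changed sign without Degrader replicate 1 (0.02). That spread comes from the same 2 libraries per arm, so leaving 1 of them out could hardly move a median further. For the runs that leave out a library, this comparison therefore shows nothing about stability. Counts of called genes moved most. With a replicate block they were 37 for GDC0068, 24 for Degrader and 30 for Degrader against GDC0068, in place of 16, 10 and 0. Leaving out 1 library of the contrast gave fewer calls in both contrasts against DMSO, as given above for each library. Such a fit has 1 library in an arm. Leaving out a library of the third arm left both counts unchanged. For Degrader against GDC0068, robust estimation called 1 gene (H2AC6), and leaving out GDC0068 replicate 2 called 1 (H4C4). DESeq2, limma voom, RLE factors, no scaling factors, no filter, a minimum of 10 CPM, only the 4 libraries compared, members without pseudogene names or overlaps, and members of at most 1000 bp (added after the data were seen) gave 12 to 17, 8 to 10 and 0. For GDC0068, DESeq2 called 17 genes and shared 13 of them with the 16 of edgeR, without H2BC14, H2BC16P and H4C6. Robust estimation gave 18 and 10 against DMSO. Without ribosomal RNA intervals and the 10 intervals of most counts, the histone share was 0.477% in DMSO and 0.417% under GDC0068, in place of 0.454% and 0.396%, and the fall remained. Of 732 further values of single genes, 641 kept direction and side of the threshold, 82 lost the call, 6 gained one and 3 reversed: H3C5P (0.053 without Degrader replicate 2, -0.29 without replicate 1) and H4-16 (0.011 without Degrader replicate 1, -0.11 without replicate 2) in Degrader against GDC0068, and H3C6 under GDC0068 (-0.056 without GDC0068 replicate 2, 0.29 without replicate 1), none of them called. The cause of these changes was not tested. With 2 libraries per arm, changes of the size of the medians lie near what a single gene can show, and genes of few counts such as H2AC9P have wide errors.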
